A study of Homo sapiens with 10 samples.

Results

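TRPS1 peaks that lay within 5 kb of the transcription start site (TSS) of their nearest gene were examined in T47D, an established human luminal breast cancer cell line. A peak is a stretch of the genome where reads of the TRPS1 immunoprecipitation pile up above those of the input chromatin. Members were chosen by the distance from the start of the peak to the TSS of the nearest gene, taken from the study's peak annotation. This gave 514 of the 1844 deposited peaks, which are 27.9% of the 1843 peaks with a nearest gene, and they named 498 nearest genes. Of the other peaks, 1329 were TSS distal and 1 had no gene. The farthest member lay 4962 bp from the TSS of *SLC16A6*, and the nearest peak outside the limit lay at 5007 bp.

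The peaks come from 2 TRPS1 ChIP and 2 input libraries of T47D cells without siRNA, and the RNA-seq from 2 libraries each of T47D cells 72 h after transfection with control siRNA, *TRPS1* siRNA or *CHD4* siRNA. For the *CHD4* knockdown the labels name an siRNA and the RNA-seq methods an shRNA. One peak list was deposited for all ChIP libraries, so a peak carries no replicate error. Nothing states that the 2 libraries of a group came from separate cultures, so the p-values measure only the spread between these libraries.

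TRPS1 is an atypical member of the GATA family of zinc finger transcription factors and is known as a transcriptional repressor. It is abundant in luminal breast epithelium and luminal breast cancers. GATA factors recognise a short motif around the letters GATA. CHD4 is the ATPase of the NuRD complex, which joins nucleosome remodelling with histone deacetylation and which repressors can bring to promoters and enhancers. The comparisons below ask whether genes with TRPS1 close to their start changed when either protein was depleted.

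Most of these peaks were much closer to the TSS than the 5 kb limit. The absolute distance was at most 100 bp for 87 peaks, over 100 to 500 bp for 186, over 500 to 1000 bp for 86, over 1000 to 2000 bp for 58 and over 2000 to 5000 bp for 97. The median was 425.5 bp, with quartiles of 182 and 1395.5 bp. The annotation placed 201 peaks (39.1%) wholly upstream of the gene, 149 (29.0%) across its start and 145 (28.2%) inside it, and the few others downstream, across its end or around the whole gene. The centre of the peak was upstream of the TSS for 292 peaks and at or downstream of it for 222, with a median 67 bp upstream (-67.0 bp), and it was within 250 bp of the TSS for 215 (41.8%). The TSS itself lay inside 154 peaks.

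**Figure D1:**
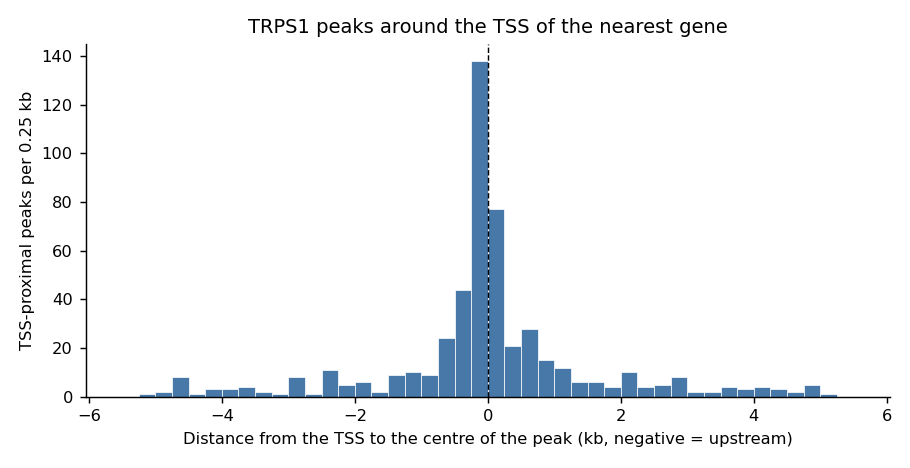
Histogram of the 514 TSS-proximal TRPS1 peaks by the distance in kb from the TSS of the nearest gene to the centre of the peak, in bins of 0.25 kb, with the TSS as a dashed line and upstream positions negative. The peaks crowd around the TSS, where 215 of them have their centre within 250 bp.

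The peaks were narrow, with a median width of 293 bp and a range from 207 to 1009 bp. The distal peaks had a median of 285 bp and reached 1745 bp. Over 500 bp in width were 29 TSS-proximal peaks (5.6%) and 135 distal peaks (10.2%). The widest TSS-proximal peaks lay at *GPR108* (1009 bp), *UMAD1* (815 bp), *ZBTB20* (766 bp), *TPPP* (710 bp) and the splicing factor gene *SRSF1* (699 bp). Chromosome 1 held the most, 63 of its 176 peaks. On chromosome 19, 38 of 71 peaks (53.5%) were TSS proximal, against 2 of 25 on chromosome 13.

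To see which letters these peaks cover, they were laid over the promoter windows of RefSeq on GRCh38, each of which runs from 250 bases before to 50 bases after an annotated start. Of the TSS-proximal peaks 236 (45.9%) overlapped such a window, against 39 distal peaks (2.9%), and they touched 325 of the 35116 windows. On both strands 46 of these peaks overlapped windows, and 50 overlapped windows of at least 2 genes, so that the nearest gene is not the only gene whose start they cover. The RefSeq start was the annotated TSS for 58 of the nearest genes and lay within 100 bp of it for 263.

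The motif searched was the GATA hexamer on both strands. Its first form was AGATAA. The second form was AGATAG. The third form was TGATAA. The last form was TGATAG. On the printed strand a hexamer of the opposite strand appears as its reverse complement. The stretches below are the parts of peaks that lie in a promoter window, printed 5′ to 3′ on the strand of the gene with GATA hexamers in capitals. *LARP4* and *WDCP* (*C2orf44* in the peak annotation) are shown because their stretches hold the most hexamers, *IRF9*, *CDCA3*, *ZBTB20*, *CD8A*, *G3BP2* and *THEM4* because they hold at least 1 and their RNA is described below, and *ARRDC3* and *ZNF616* because they hold none although their RNA was higher in both knockdowns.
LARP4 (chr12:50400635-50400926, plus strand): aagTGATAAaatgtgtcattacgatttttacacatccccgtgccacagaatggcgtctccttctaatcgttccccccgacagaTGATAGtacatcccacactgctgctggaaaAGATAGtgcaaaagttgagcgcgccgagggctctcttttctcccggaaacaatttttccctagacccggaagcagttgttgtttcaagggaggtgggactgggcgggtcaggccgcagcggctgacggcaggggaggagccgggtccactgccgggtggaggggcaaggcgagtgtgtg
WDCP (chr2:24047342-24047641, minus strand): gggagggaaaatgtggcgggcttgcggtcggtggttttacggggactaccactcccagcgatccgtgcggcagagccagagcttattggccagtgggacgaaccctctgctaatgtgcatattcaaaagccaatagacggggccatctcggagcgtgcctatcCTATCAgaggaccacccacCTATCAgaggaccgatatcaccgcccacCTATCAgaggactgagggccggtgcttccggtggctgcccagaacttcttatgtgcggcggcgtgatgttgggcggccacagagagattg
IRF9 (chr14:24161021-24161245, plus strand): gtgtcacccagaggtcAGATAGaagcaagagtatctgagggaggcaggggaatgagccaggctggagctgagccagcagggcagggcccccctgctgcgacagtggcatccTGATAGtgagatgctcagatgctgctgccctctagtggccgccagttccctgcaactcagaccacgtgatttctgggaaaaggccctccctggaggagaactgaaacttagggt
CDCA3 (chr12:6851343-6851536, minus strand): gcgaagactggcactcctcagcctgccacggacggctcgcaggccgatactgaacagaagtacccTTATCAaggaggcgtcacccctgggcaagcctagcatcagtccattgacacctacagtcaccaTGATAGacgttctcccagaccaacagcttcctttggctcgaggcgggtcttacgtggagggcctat
ZBTB20 (chr3:115147314-115147538, minus strand): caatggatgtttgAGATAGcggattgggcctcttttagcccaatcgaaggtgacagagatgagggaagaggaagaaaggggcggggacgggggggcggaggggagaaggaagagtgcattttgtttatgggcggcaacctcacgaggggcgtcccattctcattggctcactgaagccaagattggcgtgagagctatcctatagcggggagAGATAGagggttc
CD8A (chr2:86808443-86808646, minus strand): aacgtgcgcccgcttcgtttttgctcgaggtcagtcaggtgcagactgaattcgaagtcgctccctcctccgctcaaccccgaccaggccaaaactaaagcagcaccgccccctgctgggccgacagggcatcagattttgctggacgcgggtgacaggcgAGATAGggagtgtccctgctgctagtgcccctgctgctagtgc
G3BP2 (chr4:75673546-75673746, minus strand): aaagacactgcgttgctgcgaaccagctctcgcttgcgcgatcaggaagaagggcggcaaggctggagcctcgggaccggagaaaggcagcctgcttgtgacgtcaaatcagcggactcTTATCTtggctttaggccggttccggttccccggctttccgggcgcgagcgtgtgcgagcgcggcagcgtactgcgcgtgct
THEM4 (chr1:151909462-151909761, minus strand): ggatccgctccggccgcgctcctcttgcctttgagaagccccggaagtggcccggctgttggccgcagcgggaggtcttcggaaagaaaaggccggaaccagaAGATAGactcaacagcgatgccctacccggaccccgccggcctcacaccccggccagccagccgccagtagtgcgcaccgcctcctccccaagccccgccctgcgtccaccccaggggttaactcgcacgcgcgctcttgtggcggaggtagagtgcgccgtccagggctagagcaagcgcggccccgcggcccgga
ARRDC3 (chr5:91383388-91383567, minus strand): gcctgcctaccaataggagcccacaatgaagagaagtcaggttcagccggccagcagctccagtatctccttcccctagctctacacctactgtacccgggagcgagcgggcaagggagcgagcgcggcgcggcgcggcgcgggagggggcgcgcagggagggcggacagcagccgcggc
ZNF616 (chr19:52139889-52140105, minus strand): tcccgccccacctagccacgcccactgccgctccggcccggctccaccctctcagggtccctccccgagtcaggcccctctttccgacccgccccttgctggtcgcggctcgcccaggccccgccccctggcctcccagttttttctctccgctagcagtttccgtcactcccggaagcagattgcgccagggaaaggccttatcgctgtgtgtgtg

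In *WDCP* the 3 hexamers are the same form, the last one read from the opposite strand, and follow each other within a short repeat, whereas in *LARP4* the 3 hexamers are of 3 different forms on the gene's own strand. The stretches of *CDCA3* and *ZBTB20* each hold 2, and that of *ARRDC3*, rich in G and C, holds none in 180 bases. Over all windows that TSS-proximal peaks overlapped, 44.3% of 325 held a GATA hexamer, against 25% of the 35116 windows. The overlapped windows had the higher G and C content, with a median of 62.7% against 58.7%. As a reference, the same 4 hexamers with C in place of the A that ends GATA, on both strands, were in 16.6% of the overlapped and 16.6% of all windows. AGATAAGG, which contains AGATAA, was in 2.8% and 0.8%. Of general promoter elements, the GC box GGGCGG was in 72.6% of the overlapped and 45.0% of all windows, CCAAT in 50.5% and 34.6%, and TATAAA in 4.0% and 11.5%.

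Inside the peaks the hexamers lay near the centre. In the 50453 bases of the windows that were inside a peak there were 123 GATA hexamers, or 2.44 per kb. The 28883 bases of the same windows outside the peak held 18, or 0.62 per kb, and all windows together held 1.09 per kb. The GATC hexamers were at 0.81 per kb inside the peaks, 0.24 outside and 0.62 over all windows. Within 25 bp of the centre there were 5.81 GATA hexamers per kb, at 25 to 50 bp 3.38, at 50 to 75 bp 2.29 and at 75 to 100 bp 0.90. The median distance from the centre was 36.5 bp. A hexamer was present in 102 of the 236 peaks with any base in a window (43.2%) and in 77 of the 149 with at least 200 bases in one (51.7%). A match is a match of letters only, and bases outside the windows were not read.

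**Figure D2:**
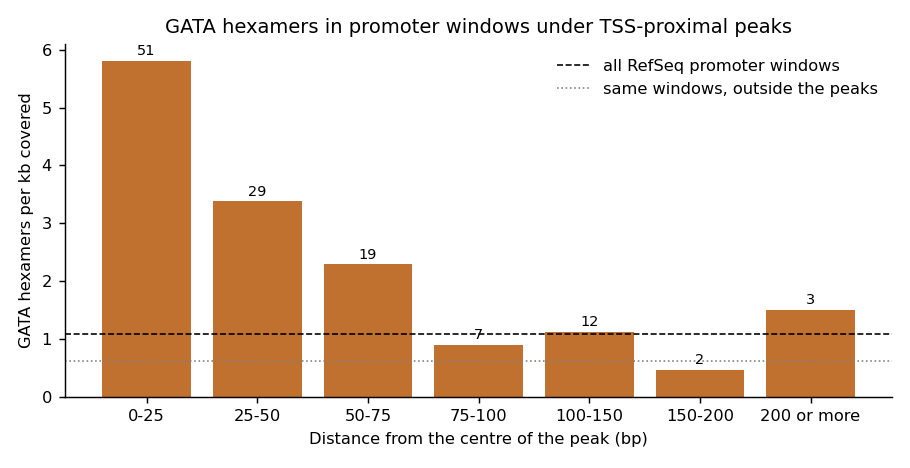
GATA hexamers per kb of covered bases (vertical axis) by distance in bp from the centre of the peak (horizontal axis), for the bases of TSS-proximal peaks inside RefSeq promoter windows; the number over each bar is the count of hexamers. The density is 5.81 per kb within 25 bp of the centre and 2.29 at 50 to 75 bp, against 1.09 over all windows (dashed line) and 0.62 in the same windows outside the peaks (dotted line).

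The nearest genes were mostly protein coding. They included 438 protein-coding genes (88.0%), 31 lncRNA, 14 miRNA, 5 snRNA and 3 snoRNA genes and 6 transcribed pseudogenes. Among the 943 genes nearest to distal peaks only, 75.2% were protein coding, 14.4% lncRNA and 6.4% miRNA, with 0 snRNA genes. The small RNAs of splicing and transcription at TSS-proximal peaks were *RN7SK*, the 7SK RNA that holds back the elongation factor P-TEFb, the spliceosomal RNA genes *RNU4-2*, *RNU5E-1*, *RNVU1-14* and *RNVU1-6*, and the nucleolar RNA genes *SNORA48*, *SNORA50C* and *SNORD118*. *RNU5E-1* had a pair of such peaks, as had 20 other genes. These were *TRPS1* itself, the oestrogen receptor gene *ESR1*, the Notch target gene *HES1*, the NuRD partner gene *ZMYND8*, the acetyltransferase gene *KAT6B*, the Mediator gene *MED13L*, the deubiquitinase gene *USP9X*, *LGALS8*, *SOWAHA*, *COLCA1*, *ABHD11*, *COMMD7*, *GLIPR1L1*, *RALGPS2*, *SGK3*, *SIDT1*, *TMEM87B*, *TRIM55*, *ZBTB37* and *ABCC5-AS1*. Where 2 genes had their TSS at the same distance from a peak, which was the case for 5 peaks, both were kept.

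RNA was measured as raw counts per gene, with 10333138 to 14668358 counts per library, and levels are given here as CPM, the count relative to a library size scaled with TMM factors over the 6 libraries. Of the 498 genes, 473 were in a count table, and 25 were not, among them the 14 miRNA genes. At over 2 CPM in at least 2 libraries of the comparison, 428 members could be tested for *TRPS1* siRNA, 427 for *CHD4* siRNA and 430 for the knockdowns against each other. This is 85.9% of the genes nearest to TSS-proximal peaks for *TRPS1* siRNA, against 60.7% of those nearest to distal peaks only. Replicate 1 of control siRNA stood apart from every other library. It correlated with them at r = 0.858 to 0.88 and lay at -114 on the first principal component, where the others lay between 8.86 and 31.2. It had the most counts, 14668358, but the fewest genes with a count, 14636 against 16779 to 17796 in the others. Calls against control siRNA are therefore given with and without it, and without it the lone control library is assumed to vary like the knockdown group. The cause of its difference was not tested. In these bulk libraries, fewer cells with an RNA and less of it per cell cannot be told apart.

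*TRPS1*, itself a member, was at 1448 and 2274 CPM with control siRNA, 1169 and 723 with *TRPS1* siRNA and 2455 and 1591 with *CHD4* siRNA. The *TRPS1* siRNA libraries were the lowest of the 6. The log2 fold change against control siRNA was -0.97 ± 0.39 (SE, n = 2 libraries per group, edgeR unadjusted p = 0.0459, adjusted p = 0.659), just short of 2-fold. This fold change was -1.26 without control replicate 1 and -0.61 without control replicate 2. Without *TRPS1* siRNA replicate 1 it was -1.34, and without *TRPS1* siRNA replicate 2 it was -0.66. *CHD4* was at 301.0 and 286 CPM with control siRNA, 303 and 269 with *TRPS1* siRNA and 96.0 and 54.4 with *CHD4* siRNA, a log2 fold change of -1.96 ± 0.42 (edgeR unadjusted p = 0.00186).

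With *TRPS1* siRNA, genes with a nearby TRPS1 peak moved in both directions. By the study's threshold, which asks for more than 2-fold change with p below 0.05 before adjustment, edgeR's test found that 13 of the 428 members were higher (3.04%) and 18 lower (4.21%). Of all 12921 genes tested, 2.70% were higher and 3.17% lower, so the share of higher members was close to the background and that of lower members somewhat above it. Among the genes nearest to distal peaks only, 39 of 572 were higher (6.82%) and 28 lower (4.90%). The median log2 fold change was -0.07 for the members, 0.10 for the genes of distal peaks and -0.02 for all genes. At an adjusted p under 0.05 edgeR's quasi-likelihood test called 0 members and 0 genes in all (0.00%). At an unadjusted p under 0.05 alone it called 38 members (8.88%, against 6.98% of all genes). Of the genes nearest to distal peaks only, 13.1% passed that unadjusted p. The likelihood ratio test and DESeq2 each called 5 members at an adjusted p under 0.05 (1.17%, against 0.263% and 0.302% of all genes).

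The higher members included transporters, a chemokine and regulators of transcription and signalling. *NAALADL2*, related to glutamate carboxypeptidases, had a TSS-proximal peak inside the gene at chr3:174859840-174860092, 519 bp from the TSS. Its level was 18.1 and 41.6 CPM with control siRNA and 204 and 151 with *TRPS1* siRNA (5.97-fold, log2 2.58 ± 0.50, edgeR unadjusted p = 0.00166). Every *TRPS1* siRNA library was thus far above both control libraries. The retinoid transporter gene *ABCA4*, with a peak inside the gene at chr1:94118170-94118422, went from 1.76 and 4.23 to 14.3 and 24.6 CPM (log2 2.70 ± 0.61). *CCL28*, which encodes a chemokine of mucosal epithelia and had a peak upstream of its start at chr5:43414107-43414403, went from 14.7 and 12.6 to 85.7 and 43.9 CPM (log2 2.25 ± 0.45). The largest log2 fold change was that of *COLCA1*, at 4.09 ± 0.71, from a very low level of 0.441 and 0.756 CPM to 13.7 and 6.91 CPM. Both control libraries were under the 2 CPM of the filter, so *COLCA1* entered the test only through the *TRPS1* siRNA libraries. Against control siRNA it could therefore only be called higher, here and in the other fits named below. The zinc finger gene *ZNF616* had 11.1 and 25 CPM with control siRNA and 65.3 and 75.1 with *TRPS1* siRNA. For *ARRDC3*, an alpha-arrestin gene, the values were 31.0 and 40.5 and then 109 and 88.2 CPM. The lysine methyltransferase gene *SETD7*, with a peak at chr4:139555223-139555507 inside the gene, was at 52.5 and 83.8 CPM with control and 173 and 165 with *TRPS1* siRNA (log2 1.32 ± 0.37, edgeR unadjusted p = 0.0108). None of these groups overlapped, which was so for all 13 higher and all 18 lower calls and adds nothing to them. Each of the 31 called members, higher or lower, had an edgeR adjusted p of 0.659.

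*DDIT3*, the gene of the stress transcription factor CHOP, was also called, but only 1 *TRPS1* siRNA library was far from control. Its values were 10.8 and 16.3 CPM with control and 85.1 and 20.3 with *TRPS1* siRNA, and the log2 fold change of 1.96 became 0.60 without *TRPS1* siRNA replicate 1. The other higher members were the transporter gene *MFSD4B* (log2 1.75), the antisense RNA gene *SLC25A21-AS1* (1.68), *LOC100129917* (1.41), the stress granule gene *G3BP2* (1.16) and the thioesterase gene *THEM4* (1.12). Without control replicate 1, 11 of the 13 stayed past the threshold, and *G3BP2* and *THEM4* did not, with log2 fold changes of 0.88 and 0.88. *SLC25A21-AS1* and *COLCA1* lie on or beside genes of the other strand, and whether the counting used the strand is not given in the sources used here.

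The lower members were led by *LGALS8*, the gene of galectin-8, which had a pair of upstream peaks at chr1:236515091-236515442 and chr1:236516900-236517206. Its level was 163 and 212 CPM with control siRNA and 63.2 and 34.2 with *TRPS1* siRNA (3.85-fold lower, log2 -1.95 ± 0.42, edgeR unadjusted p = 0.00315). *SOWAHA*, an ankyrin repeat gene that also had a pair of upstream peaks, was at 118 and 101 and then at 39.5 and 39.9 CPM. The efflux transporter gene *ABCC11*, with a peak of 641 bp at chr16:48250648-48251288, was at 269 and 267 CPM in the control libraries and 109.6 and 93.6 in the *TRPS1* siRNA libraries. In each of these 3 genes the control libraries lay close together and well above the *TRPS1* siRNA libraries. The phosphomannomutase gene *PMM1* (25 and 22.8 CPM with control, 9.23 and 8.02 with *TRPS1* siRNA), the monocarboxylate transporter family gene *SLC16A6* (42.1 and 67.7, then 17.2 and 23.5) and the inhibitory SMAD gene *SMAD7* (26.4 and 19.4, then 10.5 and 8.68) were lower as well. The semaphorin gene *SEMA3C* fell from 431 and 778 to 274 and 268 CPM.

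The other 11 lower calls rested on control replicate 1. *TOMM40*, the pore of mitochondrial protein import, was at 112 and 54.5 CPM with control siRNA and 30.5 and 34.0 with *TRPS1* siRNA, and the log2 fold change of -1.36 became -0.75 without that library. *CITED2*, a transcriptional coregulator gene, was at 305 and 140.4 CPM with control against 85.5 and 87.5 with *TRPS1* siRNA, with -1.36 and -0.69. For *ASNA1*, which encodes an ATPase of tail-anchored protein insertion, the log2 fold changes were -1.35 and -0.65, and for the glycolytic gene *PGAM1* -1.18 and -0.97. The same held for *APLP2*, *COX6A1*, *ESRP2*, *FASTK*, *RANGAP1*, *RNF26* and *TBRG4*, whose log2 fold changes without control replicate 1 ranged from -0.76 (*RANGAP1*) to -0.44 (*COX6A1*). All kept the sign and fell short of 2-fold. So 7 of the 18 lower members stayed past the threshold without this library, namely *ABCC11*, *LGALS8*, *PMM1*, *SEMA3C*, *SLC16A6*, *SMAD7* and *SOWAHA*.

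**Figure D3:**
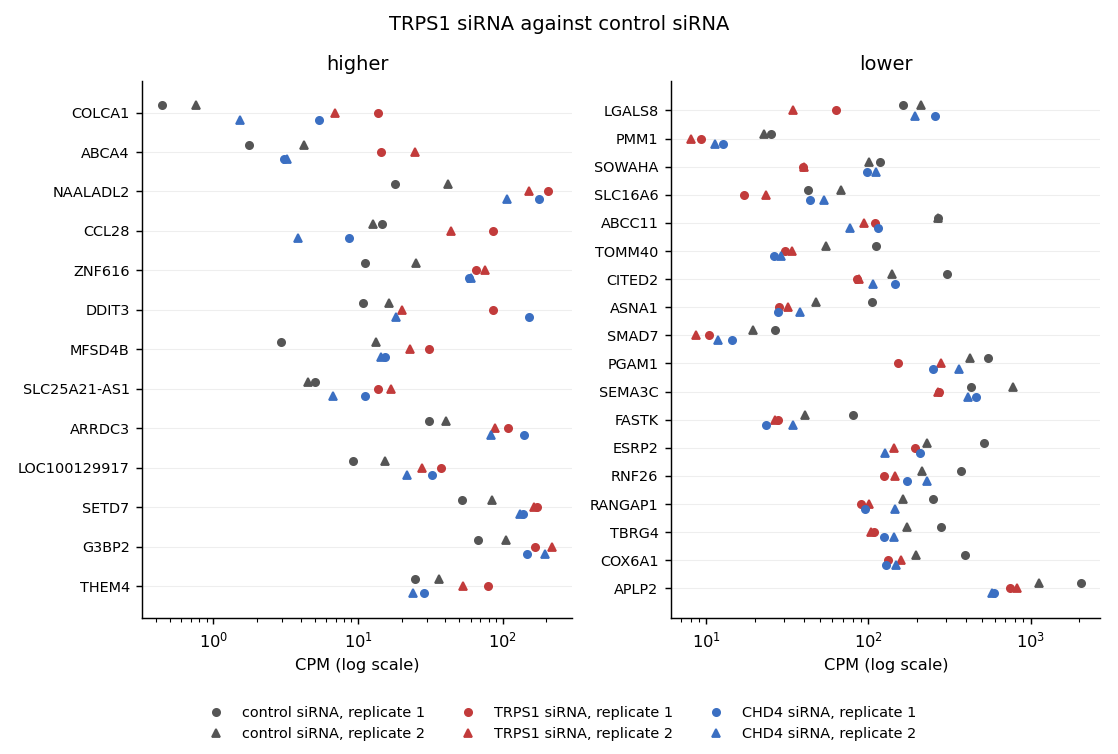
Levels in CPM (log scale) of the 13 members higher and the 18 lower with *TRPS1* siRNA, 1 gene per row in order of log2 fold change, with circles for replicate 1 and triangles for replicate 2 of control siRNA (grey), *TRPS1* siRNA (red) and *CHD4* siRNA (blue). Among the higher genes every red mark lies right of both grey marks, and for *TOMM40*, *CITED2*, *ASNA1* and *ESRP2* among the lower genes the grey circle, control replicate 1, lies at more than 2 times the level of the grey triangle.

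Without control replicate 1 the comparison made 26 higher calls (6.09% of 427 members, against 5.71% of all genes) and 17 lower calls (3.98%, against 2.40%). Among the genes nearest to distal peaks only it called 6.42% higher and 3.21% lower. At an adjusted p under 0.05 in edgeR it then called 23 members (5.39%, against 2.27%), 11 higher and 12 lower. By edgeR's adjusted p, they included *COLCA1* (log2 3.75, adjusted p = 0.0321), *CCL28* (2.36, 0.0354), *ABCA4* (2.21, 0.041) and *NAALADL2* (2.1, 0.0178) among the higher genes, and *LGALS8* (-2.12, 0.0283), *SLC16A6* (-1.72, 0.0283), *SEMA3C* (-1.51, 0.0266), *PMM1* (-1.40, 0.0451), *ABCC11* (-1.39, 0.0283) and *SOWAHA* (-1.34, 0.03) among the lower. Others of the 23 did not pass for *TRPS1* siRNA with all libraries and were named here after their values were seen. Among these *CTF1* and *ZNF703* were higher, and *PARD6B*, *MBOAT1*, *H2AFZ*, *RNF7*, *LAPTM4B* and *RAB1A* lower than the remaining control library. In *CTF1* and *ZNF703* the omitted control library held the highest level of the 6, for *ZNF703* 98.7 CPM against 35.5 in replicate 2. For *RAB1A* the omitted library, at 61.9 CPM, was below both *TRPS1* siRNA libraries, at 83.0 and 93.5, and for *H2AFZ* it was at 143 CPM, between 136 and 183. Leaving out control replicate 2 in its place, so that the library that stands apart was the only control, gave 74 higher (17.3%, against 19.2% of all genes) and 69 lower calls (16.1%, against 14.4%), and leaving out *TRPS1* siRNA replicate 1 or 2 gave 4 higher calls (0.946%, against 0.256% of all genes) or 10 (2.37%, against 0.623%), and 1 lower call each (0.236%, against 0.336%, and 0.237%, against 0.814%). *ABCA4*, *CCL28*, *NAALADL2* and *ZNF616* passed whichever library was left out, and 0 of the lower members did, since *LGALS8* alone remained without *TRPS1* siRNA replicate 1 and *PGAM1* alone without replicate 2. All 18 kept their direction in both fits, and 14 and 17 of them stayed over 2-fold. The groups did not overlap for 77 members with *TRPS1* siRNA above control (18%, against 22.5% of all genes) and for 99 members below it (23.1%, against 21.6%).

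Place around the TSS and letters of the promoter were read next to these calls. Over all genes tested with all libraries, 2.70% were higher and 3.17% lower, and most classes below are small. The shares over all genes without control replicate 1 are given in the paragraph before. Of 141 tested genes with the TSS inside a peak, 4 were higher and 2 lower, and of 163 with the nearest peak wholly upstream, 4 were higher and 13 lower. With the nearest peak inside the gene, 5 of 123 were higher and 2 lower. Of the 13 lower genes with an upstream peak, 8 are among those that rested on control replicate 1. A GATA hexamer in the covered promoter bases was present for 94 tested genes, of which 2 were higher and 4 lower, and absent for 123, of which 5 were higher and 3 lower. When control replicate 1 was left out, 8 of 141 genes with the TSS inside a peak were higher and 5 lower, 11 of 162 with an upstream peak higher and 9 lower, and 7 of 123 with a peak inside the gene higher and 3 lower. With a hexamer 2 of 94 were then higher and 2 lower, and with none 8 of 122 higher and 3 lower. The differences between these classes were not tested. Within 500 bp of the TSS 8 of 251 were higher and 5 lower, and beyond 2000 bp 1 of 63 was higher and 7 were lower, and without control replicate 1 these counts were 16 and 7 of 250 and 2 and 6 of 63.

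With *CHD4* siRNA, 11 of 427 members were higher at the same threshold (2.58%, against 2.60% of all 12918 genes tested) and 20 were lower (4.68%, against 2.85%). Higher members were thus as frequent as higher genes in general. Among the genes nearest to distal peaks only, 25 of 573 were higher (4.36%) and 31 lower (5.41%). The median log2 fold change was -0.08 for the members and -0.02 for all genes. At an adjusted p under 0.05 edgeR's quasi-likelihood test called 0 members (0.00% of all genes). At an unadjusted p under 0.05 alone it called 35 (8.20%, against 5.95% of all genes). Of the genes nearest to distal peaks only, 10.3% passed that unadjusted p. The likelihood ratio test and DESeq2 called 1 member each at an adjusted p under 0.05 (0.234%, against 0.449% and 0.387% of all genes). The control libraries of this comparison are those used for *TRPS1* siRNA, so the calls are not independent. Each of the 31 called members had an edgeR adjusted p of 0.792.

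The higher members were led by low-expressed genes. *ZBTB20*, a zinc finger repressor gene with a peak of 766 bp at its start, was at 0.0734 and 2.72 CPM with control siRNA, which were 1 and 36 counts, and at 27.0 and 8.44 CPM with *CHD4* siRNA. Its log2 fold change was 3.67 ± 1.22 and 2.71 without control replicate 1, 7.73 without control replicate 2 and 2.61 without *CHD4* siRNA replicate 1. *CD8A*, the T-cell co-receptor gene, with 1 GATA hexamer in its stretch, was barely detected at 0.294 and 1.06 CPM with control and reached 5.42 and 3.62 with *CHD4* siRNA. The gene of the costimulatory ligand *TNFSF9* went from 1.61 and 1.59 to 4.77 and 5.14 CPM and that of synaptophysin, *SYP*, from 8.96 and 3.78 to 15.4 and 19.1. These genes stayed low in every library, under 30 CPM. *CD8A* and *TNFSF9* were under 2 CPM in both control libraries, so they passed the filter only through the *CHD4* siRNA libraries. They could therefore only be called higher. *NAALADL2* was at 178 and 107 CPM with *CHD4* siRNA (log2 2.26 ± 0.53), *ZNF616* at 58.7 and 60.5 (log2 1.73 ± 0.49) and *ARRDC3* at 139 and 82.6 (log2 1.64 ± 0.43). *DDIT3* again followed 1 library, with 151 and 18.4 CPM, and its log2 fold change of 2.65 became 0.47 without *CHD4* siRNA replicate 1. *LOC100129917*, *OTUD3* and *ZHX2* were the other higher members, with log2 fold changes of 1.15, 1.12 and 1.03.

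Of the members lower with *CHD4* siRNA, *PDZK1*, an oestrogen-responsive scaffold gene with a peak upstream of its start, was at 71.2 and 109 CPM with control and 31.4 and 25.5 with *CHD4* siRNA (log2 -1.66 ± 0.42, edgeR unadjusted p = 0.00479). The luminal keratin gene *KRT18* had 2606 and 1741 CPM and then 884 and 701.9 (log2 -1.45 ± 0.38, and -1.12 without control replicate 1). *PARD6B*, which encodes a polarity protein, was at 472 and 937 CPM with control against 315 and 194 with *CHD4* siRNA. The prostaglandin E synthase gene *PTGES* was at 140.3 and 128 CPM with control and 58.9 and 45.7 with *CHD4* siRNA, and *ABCC11* was at 114 and 76.7 CPM, close to its level with *TRPS1* siRNA. The actin regulator gene *CAP2* had 51.2 and 39.9 CPM with control and 20.0 and 11.8 with *CHD4* siRNA. In all 6 of these genes both *CHD4* siRNA libraries were below both control libraries, as in all 20 members called lower.

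*COA4*, an assembly factor gene of cytochrome c oxidase, had the largest fall, a log2 fold change of -1.74, but its control libraries were at 330.4 and 88.4 CPM and the value without replicate 1 was -0.49. *TOMM40* (-1.59, and -0.97 without it), the kinetochore gene *PMF1* (-1.50, and -0.56), the mitotic entry gene *CDCA3* (-1.50, and -0.88) and *APLP2* (-1.43, and -0.92) behaved alike. *PMF1* shares exons with a readthrough gene, so its count is uncertain. Without control replicate 1, 8 of the 11 higher members and 8 of the 20 lower members stayed past the threshold. The lower ones were *ABCC11*, *CAP2*, *HMGN1*, *KRT18*, *PARD6B*, *PDZK1*, *PTGES* and *WIPI1*. That fit made 15 higher calls (3.52%, against 5.68% of all genes) and 15 lower calls (3.52%, against 2.06%). Of the genes nearest to distal peaks only it called 6.53% higher and 3.88% lower. With control replicate 1 as the only control there were 60 higher calls (14.1%, against 17.6%) and 65 lower calls (15.2%, against 13.4%), and without *CHD4* siRNA replicate 1 or 2 there were 2 higher calls (0.473%, against 0.319% of all genes) or 5 (1.18%, against 0.825%) and 6 lower calls (1.42%, against 0.406%) or 2 (0.474%, against 0.978%), so that the share of lower members was above that of all genes in the first of these fits and below it in the second. *NAALADL2* and *ZNF616* passed whichever library was left out, and 0 of the lower members did. All 20 lower members kept their direction without *CHD4* siRNA replicate 1 or 2, and 15 and 20 of them stayed over 2-fold. The groups did not overlap for 69 members above control (16.2%, against 19.8% of all genes) and 95 below it (22.2%, against 20.0%).

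**Figure D4:**
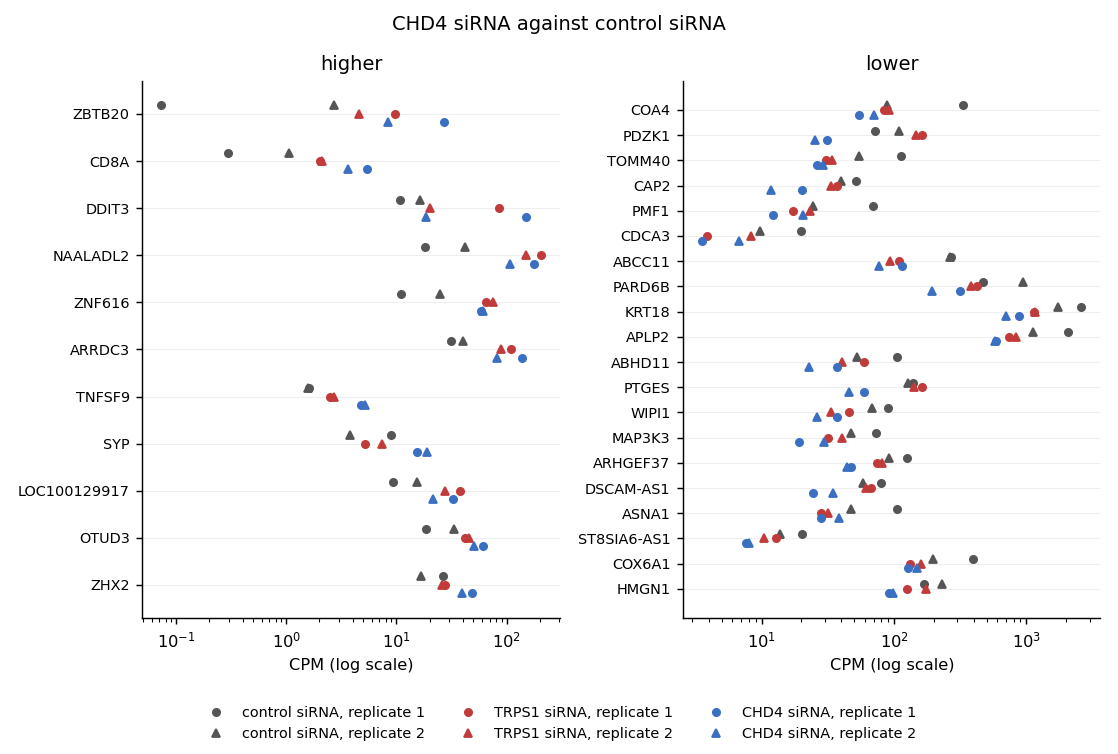
Levels in CPM (log scale) of the 11 members higher and the 20 lower with *CHD4* siRNA, 1 gene per row in order of log2 fold change, with circles for replicate 1 and triangles for replicate 2 of control siRNA (grey), *TRPS1* siRNA (red) and *CHD4* siRNA (blue). The blue marks of *DDIT3* lie at 151 and 18.4 CPM, and the grey circle of *COA4* lies at 330.4 CPM, far from the other 5 libraries.

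The knockdowns were then compared directly, without the control libraries, which asks where members differed between partial depletion of TRPS1 and of CHD4. The depletion was unequal. Against control siRNA the log2 fold change was -0.97 for *TRPS1* with *TRPS1* siRNA and -1.96 for *CHD4* with *CHD4* siRNA. With *CHD4* siRNA 8 of 430 members were higher than with *TRPS1* siRNA (1.86%, against 2.12% of all 13143 genes tested) and 15 were lower (3.49%, against 1.56%). Among the genes nearest to distal peaks only, 15 of 575 were higher (2.61%) and 24 lower (4.17%), so both sets had more lower genes than the background. The smallest adjusted p over all genes was 0.0903, so 0 members passed an adjusted p under 0.05 (0.00% of all genes) in edgeR's quasi-likelihood test. At an unadjusted p under 0.05 alone 71 members passed (16.5%, against 15.4% of all genes). Of the genes nearest to distal peaks only, 23.3% passed that unadjusted p. At an adjusted p under 0.05 the likelihood ratio test called 26 members (6.05%, against 4.34% of all genes) and DESeq2 23 (5.35%, against 3.47%). The groups did not overlap for 92 members with *CHD4* siRNA above *TRPS1* siRNA (21.4%, against 22.8% of all genes) and 120 below it (27.9%, against 24.1%).

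*CCL28* and *ABCA4* were higher with *TRPS1* siRNA than with *CHD4* siRNA. *CCL28* was at 85.7 and 43.9 CPM with *TRPS1* siRNA and 8.61 and 3.86 with *CHD4* siRNA, below both control libraries, a difference of -3.37 ± 0.49 on the log2 scale (edgeR unadjusted p = 0.000483). *ABCA4* was at 14.3 and 24.6 CPM with *TRPS1* siRNA against 3.09 and 3.22 with *CHD4* siRNA (log2 -2.62 ± 0.35, edgeR unadjusted p = 0.000294). *THEM4* had 78.8 and 53.5 CPM with *TRPS1* siRNA and 28.6 and 24.0 with *CHD4* siRNA, the latter within the range of the control libraries or next to it. *PDZK1* was at 162 and 145 CPM with *TRPS1* siRNA, above both control libraries, and at 31.4 and 25.5 with *CHD4* siRNA (log2 -2.43 ± 0.18, edgeR unadjusted p = 1.1e-05, the smallest among the members). *PTGES* was at 163 and 141 CPM with *TRPS1* siRNA against 58.9 and 45.7 with *CHD4* siRNA (log2 -1.53 ± 0.19), and the oestrogen receptor-associated lncRNA gene *DSCAM-AS1* at 67.1 and 62.0 against 24.3 and 34.4 (log2 -1.13 ± 0.21). *COLCA1* was lower with *CHD4* siRNA by this fit (log2 -1.58 ± 0.63), and the difference was -0.92 without *CHD4* siRNA replicate 2. *CAP2* was lower too (log2 -1.15 ± 0.28), with -0.80 without that library. *ABCA4* had an edgeR adjusted p of 0.0903 and *CCL28* of 0.093, and so had *LGALS8*, at 0.093. The other lower members, named after their values were seen, were *C12orf65*, *CTF1*, *KIAA1551*, *LINC01232*, *LOC101927181*, *NEMP2* and *NETO2*, with log2 differences from -1.64 (*LINC01232*) to -1.01 (*C12orf65*).

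*LGALS8*, *SOWAHA* and *SLC16A6* showed the opposite pattern, with the *TRPS1* siRNA libraries the lowest. *LGALS8* was at 63.2 and 34.2 CPM with *TRPS1* siRNA and 256 and 194 with *CHD4* siRNA, around its control levels (log2 2.22 ± 0.32, edgeR unadjusted p = 0.000485). *SOWAHA* was at 39.5 and 39.9 CPM with *TRPS1* siRNA against 97.5 and 112 with *CHD4* siRNA (log2 1.41 ± 0.15), and *SLC16A6* at 17.2 and 23.5 CPM with *TRPS1* siRNA against 43.8 and 53.3 with *CHD4* siRNA (log2 1.26 ± 0.22). *LGALS8* and *SOWAHA* are the ones among them with a pair of TSS-proximal peaks. *SYP* (log2 1.45), *CD8A* (1.13), the calcium-binding gene *S100P* (1.33), *COA7* (1.07) and *TRPS1* (1.11) were the other members higher with *CHD4* siRNA. *S100P* and *COA7* were named after their values were seen. The differences of *CD8A*, *COA7* and *TRPS1* went under 1 without *CHD4* siRNA replicate 1, that of *S100P* without *TRPS1* siRNA replicate 1, and those of *COA7* and *TRPS1* also without *TRPS1* siRNA replicate 2. Those of *LGALS8*, *SOWAHA*, *SLC16A6*, *SYP*, *CCL28*, *ABCA4*, *PDZK1* and *PTGES* stayed past 2-fold and an unadjusted p of 0.05 whichever library was left out.

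**Figure D5:**
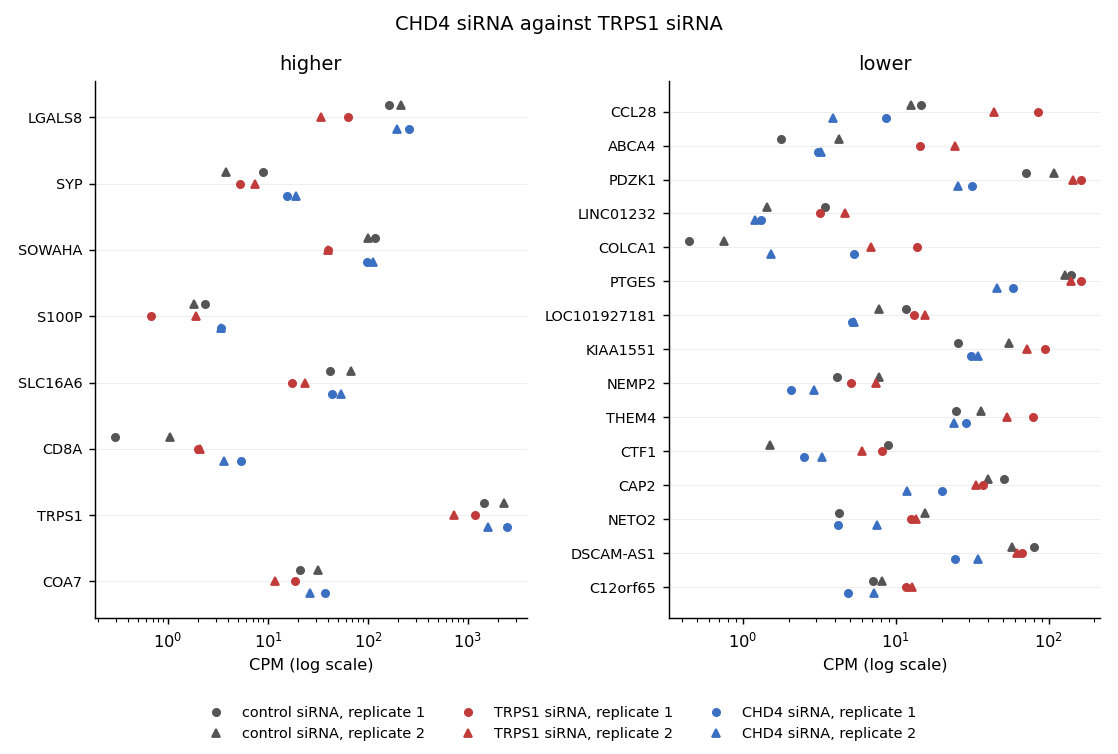
Levels in CPM (log scale) of the 8 members higher and the 15 lower with *CHD4* siRNA than with *TRPS1* siRNA, 1 gene per row in order of log2 difference, with circles for replicate 1 and triangles for replicate 2 of control siRNA (grey), *TRPS1* siRNA (red) and *CHD4* siRNA (blue). For *LGALS8* and *SOWAHA* the red marks lie left of the grey and blue marks, and for *CCL28* and *ABCA4* they lie right of them.

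For some members the knockdowns stood close together. *NAALADL2* differed between *CHD4* and *TRPS1* siRNA by -0.31 ± 0.28 on the log2 scale, *ZNF616* by -0.23 ± 0.16, *ARRDC3* by 0.18 ± 0.27, *SETD7* by -0.32 ± 0.14 and *ABCC11* by -0.08 ± 0.23. None of these differences reached 2-fold, which does not show that the levels were equal. *SETD7* was at 137 and 132 CPM with *CHD4* siRNA, above both control libraries, but its log2 fold change against control of 0.99 did not pass the threshold (edgeR unadjusted p = 0.0398).

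Gene lists of pathways were set beside the members. Of 33 luminal and hormone response genes, 13 had a TSS-proximal peak, and all 13 could be tested. None of these 13 passed the threshold with *TRPS1* siRNA, and *KRT18* and *PDZK1* were lower with *CHD4* siRNA. Of the whole list 0 were higher and 6 of 33 lower with *TRPS1* siRNA, and 0 higher and 7 of 32 tested lower with *CHD4* siRNA, with medians of -0.61 and -0.61 against -0.02 and -0.02 over all genes. Without control replicate 1 there were 1 higher and 4 lower of 33 with *TRPS1* siRNA (median -0.27) and 1 higher and 7 lower of 32 with *CHD4* siRNA (median -0.31). Among the members that fit added *ZNF703* as higher and *TRPS1* as lower with *TRPS1* siRNA. *ESR1*, the oestrogen receptor gene, was at 268 and 398 CPM with control, 198 and 235 with *TRPS1* siRNA and 247 and 188 with *CHD4* siRNA, so that both knockdowns lay below both control libraries, with log2 fold changes of -0.61 ± 0.35 and -0.61 ± 0.38 that did not pass. The pioneer factor gene *FOXA1* was at 261 and 292, then 273 and 190.3, then 387 and 251 CPM in the same order, with overlapping groups. The growth factor receptor gene *ERBB3* was at 928 and 653, then 619 and 394, then 955 and 636 CPM, and the oestrogen target gene *GREB1* at 834 and 710.3, then 710.4 and 658, then 592 and 410.4 CPM. *IGFBP5*, *NR2F1*, *NR2F2*, *RERG*, *TLE3* and *ZNF703* did not pass either, with log2 fold changes between -0.69 and 0.19 for *TRPS1* siRNA and between -0.51 and 0.08 for *CHD4* siRNA. *ZNF703* had a log2 fold change of 0.19 with *TRPS1* siRNA, and of 1.11 without control replicate 1 (edgeR adjusted p = 0.0422).

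The luminal identity of the cells was checked on marker genes. The summed level of 7 luminal markers was 13800 and 9090 CPM with control siRNA, 5020 and 5300.0 with *TRPS1* siRNA and 4980 and 4190 with *CHD4* siRNA. The basal markers *KRT5*, *KRT14* and *KRT17* were under 1 CPM in every library, and *TP63* was at 1.98 and 1.89, 14.2 and 5.79, and 25 and 7.4 CPM in the same order, called higher in both knockdowns. With both control libraries under 2 CPM, *TP63* entered these tests only through the knockdown libraries and could only be called higher. The luminal markers *KRT8* and *KRT19* were called lower in both knockdowns and *KRT18* with *CHD4* siRNA. These calls held without control replicate 1 except that of *KRT19* with *TRPS1* siRNA, and those of *TP63* held. The keratins carry most of the sum. *CDH1* and *EPCAM*, which define epithelium, did not pass, with log2 fold changes of -0.16 and 0.37 for *TRPS1* siRNA and of -0.29 and 0.28 for *CHD4* siRNA. Of 3 immune and endothelial markers the summed level was at most 0.241 CPM. Of 4 fibroblast markers *COL1A2* and *COL3A1* were under 0.2 CPM in every library, and the summed level was 158 and 66.5 CPM with control siRNA, 123 and 82.3 with *TRPS1* siRNA and 89.8 and 60.8 with *CHD4* siRNA, most of it *COL1A1*. *VIM* was at 1.76 and 2.87 CPM, then 17.3 and 2.24, then 1.12 and 1.45, high in 1 *TRPS1* siRNA library. Its log2 fold change of 2.06 with *TRPS1* siRNA did not pass, and that of -2.87 for *CHD4* against *TRPS1* siRNA did. The part of these marker shifts in the results for *KRT18* and *ESR1* was not tested.

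Other lists had few members. In cholesterol synthesis *FDPS* and the desaturase gene *SC5D* were among the genes with a TSS-proximal peak, and neither passed in either knockdown. *SC5D* was at 44.7 and 146, then 204 and 177, then 136 and 139 CPM with control, *TRPS1* and *CHD4* siRNA. Of the 22 genes of this list 3 were lower in each knockdown and 0 higher, and the counts were equal without control replicate 1. In the integrated stress response, *DDIT3* was called and *ERO1A* and *PPP1R15A* were not, and the whole list of 21 had 1 higher gene of 20 tested with *TRPS1* siRNA and 4 of 21 with *CHD4* siRNA. Without control replicate 1 there were 4 higher and 1 lower of 20 with *TRPS1* siRNA, *DDIT3* and *PPP1R15A* among the higher, and 5 higher and 1 lower of 21 with *CHD4* siRNA, *DDIT3* not among them. Of the aminoacyl-tRNA synthetase genes *CARS2*, *LARS*, *MARS*, *NARS2* and *TARS2* were among those with a TSS-proximal peak, and 0 of these 5 passed. The whole list of 35 tested had 1 lower gene with *TRPS1* siRNA, which did not pass without control replicate 1, and 0 with *CHD4* siRNA.

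*IRF9*, *STAT2* and *STAT3*, which transduce interferon signals, and *C19orf66* had TSS-proximal peaks, but 0 of these 4 and 0 of the 19 tested interferon genes passed in either knockdown, with or without control replicate 1. *ISG15*, named after its values were seen like the next pair, was at 55.4 and 39.0 CPM with control siRNA, 5.38 and 79.6 CPM with *TRPS1* siRNA and 6.08 and 82.3 with *CHD4* siRNA, so that replicate 1 was far lower than replicate 2 in both groups, and the same held for *IFIT1* (17.9 and 169, then 15.1 and 143) and *OAS2* (20.7 and 182, then 22.9 and 360.0). The cause was not tested. *IRF9*, with 2 GATA hexamers in its stretch, was at 104 and 53.8, then 32.9 and 65.5, then 39.8 and 60.8 CPM with control, *TRPS1* and *CHD4* siRNA. Of the splicing factors *SNRNP70*, *SRSF1*, *SRSF6* and *TRA2B*, and of the complex I subunit genes *NDUFA11*, *NDUFB7* and *NDUFV1*, 0 passed in either knockdown. Of all 14 splicing factors tested 0 passed, and of 35 complex I genes 1 was lower with *CHD4* siRNA. With control replicate 1 left out, 0 splicing factors passed, and of the complex I genes 2 were higher with *TRPS1* siRNA and 0 passed with *CHD4* siRNA. The NuRD partner genes *ZMYND8* and *ZFPM1* did not pass, and of the 17 genes of that list 1 was lower with *TRPS1* siRNA and 1, *CHD4* itself, with *CHD4* siRNA, and the counts were equal without control replicate 1.

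Genes with a pair of peaks were called in both directions. Of the 21 genes with a pair of TSS-proximal peaks, 16 were tested for *TRPS1* siRNA, of which *COLCA1* was higher and *LGALS8* and *SOWAHA* lower, with a median log2 fold change of -0.05. Without control replicate 1 the median was -0.21. *COLCA1* entered the test only through the *TRPS1* siRNA libraries. Over all genes tested, 2.70% were higher and 3.17% lower with *TRPS1* siRNA, and 2.85% were lower with *CHD4* siRNA. The pairs are too few to set against these shares. Of the 15 tested for *CHD4* siRNA *ABHD11* was lower, though not without control replicate 1. *HES1* was at 37.0 and 19, then 39.4 and 19.8, then 31.8 and 20.3 CPM and *KAT6B* at 46.9 and 51.4, then 61.2 and 55.2, then 70.4 and 51.4 CPM with control, *TRPS1* and *CHD4* siRNA. Of the genes with the widest peaks *ZBTB20* was higher with *CHD4* siRNA, and *GPR108*, *UMAD1*, *TPPP* and *SRSF1* passed in neither knockdown, with *TPPP* at 27.5 and 29.5, then 45.5 and 41.2, then 50.9 and 44.4 CPM, above control in every knockdown library. *LARP4* and *WDCP*, with 3 hexamers each, had log2 fold changes of 0.37 ± 0.37 and -0.08 ± 0.37 with *TRPS1* siRNA. *RN7SK* was abundant, at 13500.0 and 4580.0 CPM with control, 9849 and 7172 with *TRPS1* siRNA and 10080.0 and 5896 with *CHD4* siRNA, and did not pass. *RNVU1-6* and *SNORA50C* had at most 2 counts in any library, under the limit of 3 counts, and the other small RNA genes were in no count table.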

How the data were processed

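ChIP-seq of TRPS1 (2 ChIP and 2 input libraries) and rRNA-depleted RNA-seq (2 libraries per siRNA group) were made from T47D cells. Before the peak list was deposited, the authors aligned reads to hg38 with BWA 0.7.12-r1039 and called peaks with MACS2 2.1.1; whether replicates were pooled, and the ChIP depth, are not given in the sources used here. For expression the authors deposited raw counts per gene, made with STAR and HTSeq 0.9.0. The deposited values included no normalisation, and the strand setting is not given in the sources used here. The nearest gene and TSS of each peak came from the study's annotation, and the distances were recomputed. hg38 positions are on GRCh38, as are the RefSeq promoter windows; the sequence of a peak outside them was not used here.

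Each comparison was fitted over all genes of its count table with the quasi-likelihood test of edgeR 4.0.16 in R 4.3.3, with TMM factors, a filter of over 2 CPM in at least 2 libraries of the comparison, a prior count of 0.125 and Benjamini-Hochberg adjustment. SEs were derived from the log2 fold change and the F statistic (its size over √F). The likelihood ratio test of edgeR and DESeq2 1.42.0 were alternatives, beside other scalings, filters, distances, a stricter peak threshold and omission of each library. With 2 libraries against 2 an exact permutation test cannot go below p = 0.3333 (two-sided). The fits were tested on simulated data.

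Named were TRPS1, CHD4, SETD7, NAALADL2 and the other genes with a peak near the TSS among those the study displayed, members of the gene lists, the 10 largest calls per direction and knockdown, genes of the 5 widest peaks, genes with 2 peaks and small RNA genes. Calls named beyond the 10 were chosen after their values were seen. The members and lists were chosen with earlier results of these data known. Some members of the lists are not reported here.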

Additional observations from a re-analysis of the deposited data

How the results depend on the processing

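The number of TSS-proximal peaks was 359 within 1000 bp, 417 within 2000 bp, 646 within 10000 bp, 515 when measured from the centre of the peak, and 338 for peaks with a −log10 q of 10 or more. With *TRPS1* siRNA the 13 higher calls became 20 with DESeq2, 20 with the likelihood ratio test, 24 without a filter and 4 to 74 when 1 library was left out. The 18 lower calls became 11 with library sizes alone, 28 without a filter, 8 for peaks within 1000 bp and 1 to 69 when 1 library was left out. The 0 calls by adjusted p became 5 with DESeq2, 5 with the likelihood ratio test and 0 to 216 when 1 library was left out. With *CHD4* siRNA the 11 higher calls became 7 under the stricter peak threshold and 2 to 60 when 1 library was left out, the 20 lower calls 12 within 1000 bp, 13 under the stricter peak threshold and 2 to 65, and the 0 calls by adjusted p 1 with DESeq2, 1 with the likelihood ratio test, 4 without a filter and 0 to 138. Between the knockdowns the 8 higher calls became 3 within 1000 bp and 4 under the stricter peak threshold, the 15 lower calls 7 and 9, and the 0 calls by adjusted p 23 with DESeq2, 26 with the likelihood ratio test, 19 without a filter and 0 to 8 when 1 library was left out. Calls for peaks within 1000 bp or over the stricter threshold are fewer because fewer genes enter. For the rest the cause was not tested. The share over all genes moved with the setting too, also when 1 library was left out. With *TRPS1* siRNA, DESeq2 called 4.67% of members higher (2.83% of all genes) and the likelihood ratio test 4.67% (3.65%). Without a filter 5.11% were higher (3.34%) and 5.96% lower (3.81%), and with library sizes alone 2.57% lower (1.96%). Also without a filter, 0.855% passed an adjusted p with *CHD4* siRNA (0.585%) and 4.03% between the knockdowns (2.17%).

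The labels give the libraries replicate numbers, but nothing states that a number marks a shared culture, and with 2 pairs the deviations of same-numbered libraries correlated at 0.051, 0.00952 and 0.615. With the replicate number as a block, *TRPS1* siRNA had 29 higher calls (6.78%, against 5.73% of all genes) and 6 by adjusted p (1.40%, against 0.248%), *CHD4* siRNA 17 higher calls (3.98%, against 4.51%) and 2 by adjusted p (0.468%, against 0.341%), and the direct comparison 123 by adjusted p (28.6%, against 25.7%).

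The log2 fold change of *CHD4* with *TRPS1* siRNA, -0.034, changed sign to 0.093 with library sizes alone and 0.021 with over 2 CPM in every library, and was -0.104 to 0.061 when 1 library was left out. That of *TRPS1* with *CHD4* siRNA, 0.127, was -0.199 to 0.492. Neither had passed the threshold, and the cause was not tested. For single genes 882 of 1062 values under alternatives kept direction and side of the threshold, 172 lost the call, of which 142 came from leaving out a library, 2 gained it and 6 changed sign.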

Other observations

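Among the distal peaks, 39 overlapped a RefSeq promoter window although the TSS of their nearest annotated gene was over 5 kb away. Some windows belong to other starts of the nearest gene. GATA hexamers were counted here over the whole window, and whether they lie in the bases shared with the peak was not read. The window of *CEP164* shared 251 bases with such a peak and held 4 hexamers, the most of the 39. The window of *EHF*, an epithelial ETS factor gene, shared 279 bases and held 1 hexamer. That of *ARRDC4*, an alpha-arrestin gene like *ARRDC3*, shared 131 bases and held 0. Other windows belong to a gene that was not named as the nearest. These include *RUNX1*, the haematopoietic and epithelial transcription factor gene, whose window shared 300 bases with a peak assigned to *LINC01426* and held 0 hexamers. The window of *MECOM* shared 148 bases with a peak assigned to *LOC100507661* and held 1 hexamer. The genes were picked after their values were seen, and these peaks are not counted among the 514 TSS-proximal peaks.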
